A study of Mus musculus with 8 samples.

Results

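Cd4-rich quiet tissue is the set of square bins, 360 pixels on a side, that held 40 or more Cd4 transcripts but few transcripts of dividing cells, macrophages or interferon-induced chemokines. A bin counted as tissue with 20 or more gene molecules, and as quiet with under 10 Mki67 plus Birc5, under 30 Adgre1 plus Cd68 and under 30 Cxcl9 plus Cxcl10 molecules. Of 18080 tissue bins in 8 sections, 9007 were quiet, and 2059 of these were Cd4-rich. The other 6948 quiet bins, with under 40 Cd4, served as the comparison within each section. The bins were chosen by the measured values of these 7 genes, so their levels are given as a description, and tests use the other 93 genes of the panel.

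The sections came from the tumour-bearing brain hemisphere of mice implanted with GL261, a mouse glioma cell line, and were read by single-molecule RNA imaging (Resolve smFISH) with a panel of 100 genes. All mice carried GL261 tumours, received 4 intracranial treatments and were killed on day 21. The treatments were PBS (the vehicle control), anti-PD1 (an antibody against the PD-1 checkpoint receptor), CpG-STAT3ASO (a CpG oligonucleotide joined to an antisense oligonucleotide against Stat3), or both agents in combination, with 2 sections each. The labels give neither mouse strain and age nor the pixel size, nor whether the sections came from separate animals, so p-values measure only the spread between these sections. Sections held 1664837 to 6987530 molecules, and codes that match no gene (false-positive codes) made up 0.106% to 0.306% of them; sections with CpG-STAT3ASO had 1664837 to 3922990 molecules and 22 to 78 bins with 100 or more Mki67 plus Birc5 molecules, against 4189535 to 6987530 molecules and 714 to 1090 such bins without it.

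CD4 is best known as the coreceptor of helper T cells, where it sits beside the T cell receptor and its CD3 chains, and it is also found on some myeloid cells. SIRPα, encoded by Sirpa, is the inhibitory receptor for CD47 on phagocytes and is abundant on neurons as well. S1pr1 encodes a sphingosine-1-phosphate receptor of lymphocytes, endothelium and astrocytes. The panel measured 0 of the 6 neuron, 4 astrocyte, 5 oligodendrocyte and 3 endothelium marker genes listed for this work, so that the tissue is brain parenchyma could not be checked with markers.

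Cd4-rich bins held 142456 Cd4 molecules, with a median of 51 to 73 per bin across sections, against a median of 0 to 4 in the other quiet bins. They held 28.5% to 71.0% of all Cd4 molecules of a section. In PBS sections 340 and 66 bins qualified, in anti-PD1 sections 498 and 142, in CpG-STAT3ASO sections 177 and 281, and in combination sections 301 and 254. Of the genes with an upper limit, which have no test here, Cd68, a lysosomal protein of macrophages, averaged 7.70 ± 1.18 molecules per Cd4-rich bin (SD, n = 8) and 4.45 ± 1.36 per other quiet bin, higher in 8 of 8 sections. Adgre1, the macrophage gene F4/80, averaged 2.11 ± 0.954 and 1.99 ± 1.13. The proliferation genes Mki67 and Birc5 averaged 0.689 ± 0.446 and 0.361 ± 0.125 against 0.824 ± 0.415 and 0.474 ± 0.121, each lower by share in 7 of 8 sections. The chemokines Cxcl9 and Cxcl10 averaged 0.452 ± 0.379 and 1.19 ± 0.991 against 0.768 ± 1.25 and 1.84 ± 1.89. The bins lay together to different degrees. The largest patch of touching bins held 55.6% to 96.4% of a section's Cd4-rich bins. Among the quiet neighbours of a Cd4-rich bin 44.4% to 77.9% were Cd4-rich too, against 5.27% to 26.8% for the neighbours of other quiet bins.

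**Figure D1:**
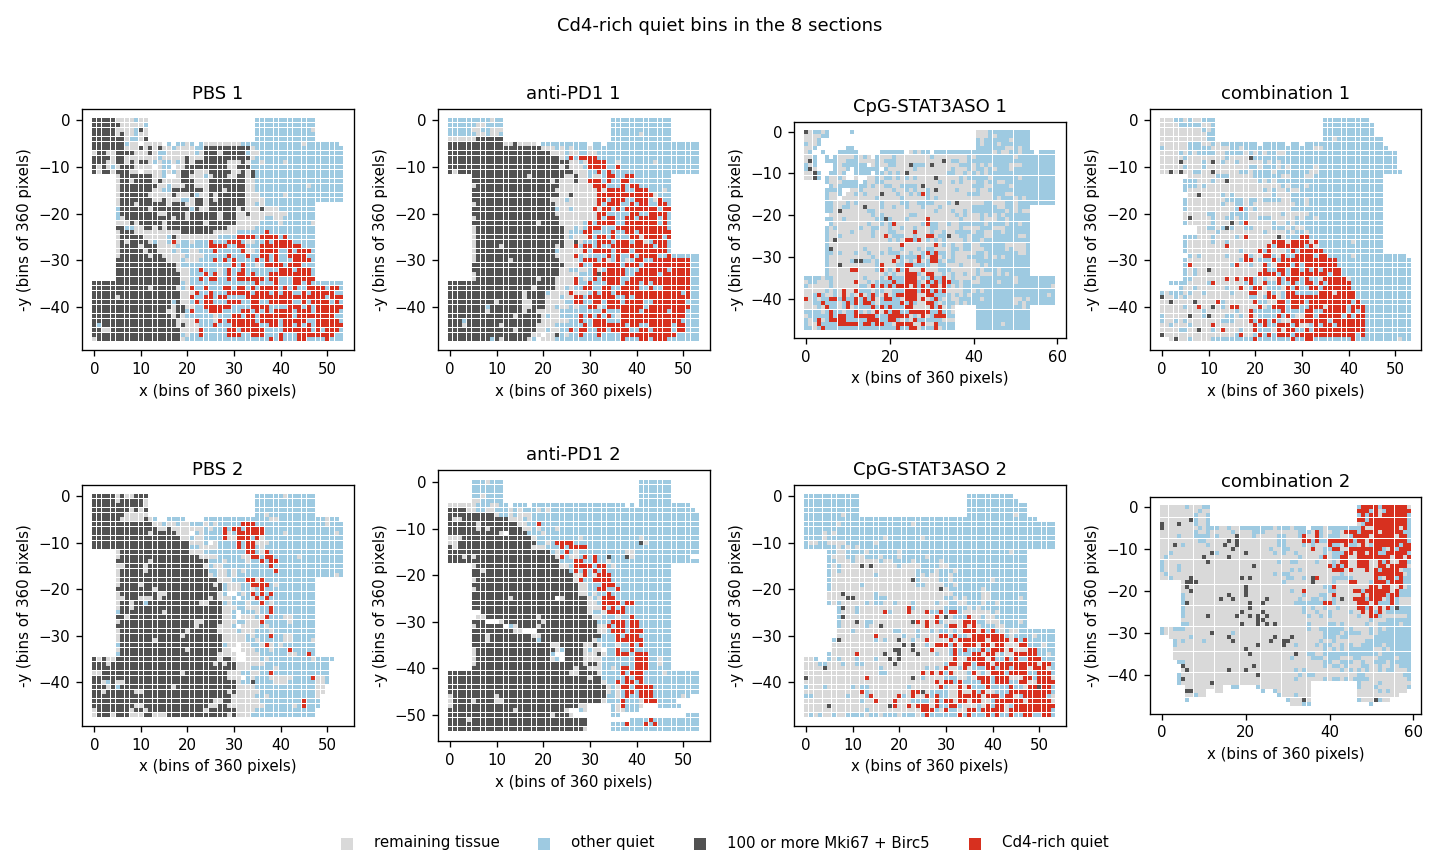
Position of each tissue bin in the 8 sections, with both axes in bins of 360 pixels; red marks Cd4-rich quiet bins, blue the other quiet bins, dark grey bins with 100 or more Mki67 plus Birc5 molecules and light grey the remaining tissue. The largest patch holds 480 of the 498 red bins in anti-PD1 replicate 1, but 37 of 66 in PBS replicate 2, 79 of 142 in anti-PD1 replicate 2 and 103 of 177 in CpG-STAT3ASO replicate 1.

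The Cd4-rich bins were neither nearer to nor farther from dense proliferating tissue in a common direction. The median distance to the nearest bin with 100 or more Mki67 plus Birc5 molecules averaged 10.9 bins ± 3.45 (SD, n = 8 sections) for Cd4-rich bins and 10.9 ± 3.07 for other quiet bins. The difference averaged -0.048 bins ± 3.70, with Cd4-rich bins farther in 2 of 8 sections (exact two-sided sign-flip permutation test, p = 1). Bins of the largest patch, all with 40 or more Cd4, held 68.4 Cd4 molecules on average. Outside it only quiet bins with under 40 Cd4 were counted, so the direction of the step at its edge follows from the rule. Of these, bins under 2 bins away held 21.2 Cd4 molecules, those 2 to under 4 bins away 9.23, and those 16 or more bins away 1.89.

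Cd3d was about as rare in Cd4-rich as in other quiet bins. Cd3d, a chain of the T cell receptor complex, was seen in 59 of 2059 Cd4-rich bins (2.87%) and in 203 of 6948 other quiet bins (2.92%). Cd4-rich bins held 91 Cd3d molecules in all. Per 1000 Cd4 molecules they held 0.0431 to 3.27 Cd3d molecules, with a median of 0.845 over sections. The other quiet bins held a median of 5.37 and the rest of the tissue 58.0. Since the rule selected on Cd4, the denominator, this order follows in part from the selection. In Cd4-rich bins of 4 of 8 sections Cd3d had more molecules than 90% of the false-positive codes. Its difference between Cd4-rich and other quiet bins was -0.06 ± 0.39 (log2 of molecules per 1000000 + 1, ± SE; limma with Benjamini-Hochberg adjustment, adjusted p = 0.97), and Cd8a, the coreceptor of cytotoxic T cells, gave -0.01 ± 0.27 (adjusted p = 0.98). Foxp3, the factor of regulatory T cells, gave 0.21 ± 0.19 (limma, adjusted p = 0.51). Unlike Cd3d, both were seen in a larger part of Cd4-rich than of other quiet bins when the sections were pooled. At least 1 Cd8a molecule lay in 19.5% against 14.7%, and at least 1 Foxp3 molecule in 8.40% against 5.21%. Bins with 3 or more Cd8a molecules made up 3.06% against 3.07%. For at least 1 Cd8a molecule, anti-PD1 replicate 2 (9.15% against 10.9%) and combination replicate 2 (29.5% against 36.3%) went the other way. The remaining sections went with the pool, and for Foxp3 every section did. These parts of bins were not tested, nor adjusted for the number of molecules per bin.

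A short set of genes rose with Cd4. Of 86 genes tested, 24 (27.9%) differed between Cd4-rich and other quiet bins by limma on each gene's share of the molecules, 4 higher (4.65%) and 20 lower (23.3%), with a median difference over all genes of -0.18. With molecules per bin in place of shares the median over all genes was 0.06, and 9 genes were higher and 13 lower; with median-of-ratios size factors the median was -0.02, with 8 higher and 16 lower. The 4 higher genes and 13 of the lower ones passed the threshold in the same direction under all 3 scalings. Except in CpG-STAT3ASO replicate 2 (a median of 739 against 799), Cd4-rich bins also held more molecules of the 93 genes. The medians were 592.5 to 1094.5 per bin across sections against 500 to 863. With comparison bins matched on the molecules of the 93 genes, 23 genes were called, with Scarb1 at 0.84 and Il12a at -4.11. In the sentences that follow, levels are molecules per bin and differences are log2 differences of molecules per 1000000, both over 8 sections.

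Scarb1 encodes the scavenger receptor that takes up cholesterol from HDL. It ranged from 22.0 to 30.1 molecules per Cd4-rich bin (median 25.8) and from 9.94 to 14.6 per other quiet bin (median 12.4), so the sections of both kinds did not overlap. Its difference was 0.82 ± 0.07 (limma, adjusted p = 9.1e-07). Dnmt3a, a de novo DNA methyltransferase, ranged from 43.2 to 63.0 (median 49.5) against 22.1 to 33.7 (median 27.4), again without overlap, a difference of 0.65 ± 0.06 (limma, adjusted p = 1.1e-06). Cd47, the ligand of SIRPα, ranged from 123.9 to 163.5 (median 137.1) against 66.9 to 113.4 (median 78.0), a difference of 0.53 ± 0.05 (limma, adjusted p = 1.1e-06). All 3 were higher in 8 of 8 sections and past the threshold in each of 26 alternative settings. The same sign in every section was a condition for naming them, and overlap was not counted over all tested genes. Icos, a costimulatory receptor of activated T cells, was much scarcer, at 0.465 to 1.22 molecules per bin against 0.224 to 0.868, and overlapped; it was higher in 7 of 8 sections, with combination replicate 2 at -0.06 (0.62 ± 0.14; limma, adjusted p = 0.0053).

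Sirpa and S1pr1, which had been put forward as markers of this tissue, were not higher by share in Cd4-rich than in all other quiet bins. Sirpa stood at 121.9 to 192.6 molecules per Cd4-rich bin (median 133.5) and 111.5 to 188.2 per other quiet bin (median 140.7), and the sections overlapped almost wholly. Its share was lower by a small amount (-0.19 ± 0.06; limma, adjusted p = 0.047), but the call held in 9 of 26 alternative settings and molecules per bin gave 0.06. All Cd4-rich bins held 40 or more Sirpa molecules, and so did 71.8% to 88.6% of the other quiet bins. S1pr1 stood at 22.8 to 29.1 molecules per bin against 18.6 to 29.1, with a difference of 0.00 ± 0.06 (limma, adjusted p = 0.98). Crbn, the substrate receptor of a ubiquitin ligase, gave 0.05 ± 0.06, and Fabp5, a fatty acid carrier, 0.03 ± 0.10; neither passed the threshold.

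**Figure D2:**
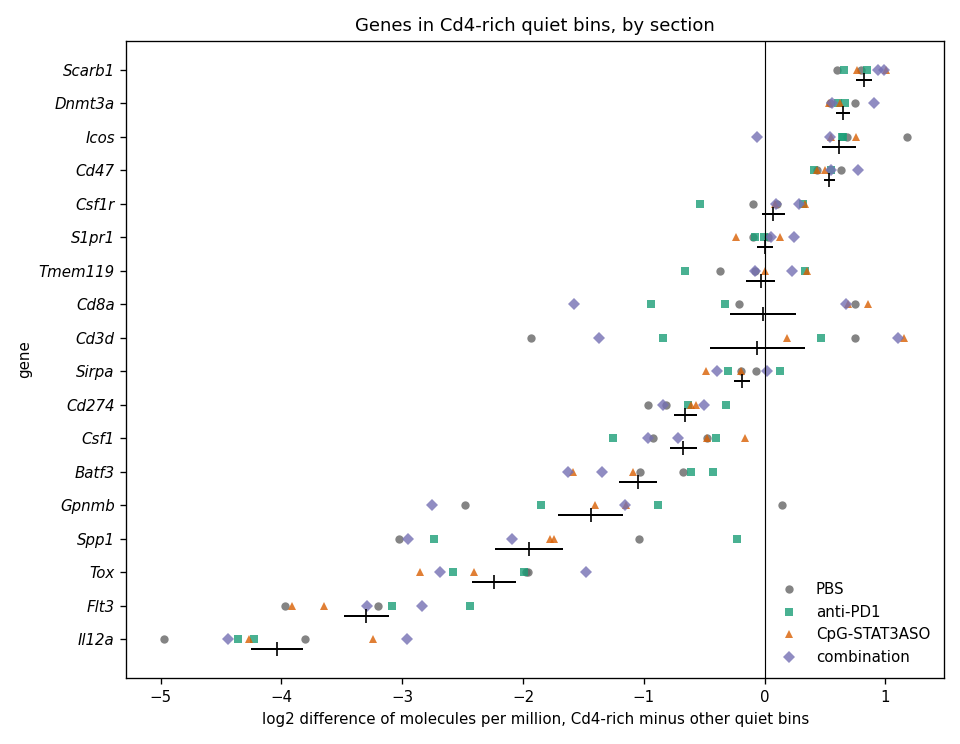
Log2 difference of molecules per 1000000 between Cd4-rich and other quiet bins for 18 genes; each point is a section, and the black bar is limma's mean with its SE. Scarb1, Dnmt3a and Cd47 lie above 0 in all 8 sections, Il12a, Flt3 and Tox lie below -1 in all 8, and S1pr1 and Sirpa straddle 0.

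Il12a, Flt3 and Tox were nearly missing from Cd4-rich bins. Il12a, the p35 subunit of interleukin-12, ranged from 0.0551 to 0.215 molecules per Cd4-rich bin (median 0.0801) and from 0.369 to 2.44 per other quiet bin (median 1.52), a difference of -4.03 ± 0.22 (limma, adjusted p = 3.2e-08). Flt3, a growth factor receptor of dendritic cell progenitors, ranged from 0.0884 to 0.147 against 0.352 to 1.70 (-3.30 ± 0.19; limma, adjusted p = 3.2e-08). Tox, a factor of exhausted T cells that is also expressed in brain, ranged from 0.0664 to 0.182 against 0.216 to 0.754 (-2.24 ± 0.18; limma, adjusted p = 9.1e-07). For none of the 3 did the sections of both kinds overlap. The rule named them for the same sign in every section, and the share of all tested genes without overlap is not given. Bins with 5 or more Il12a molecules numbered 1 of 2059 Cd4-rich and 621 of 6948 other quiet bins, and those with 5 or more Flt3 molecules 3 and 480. For Tox the counts were 0 of 2059, which allows a share of up to 0.146% by counting error alone, and 110 of 6948. In 5 of 8 sections Il12a in Cd4-rich bins had more molecules than 90% of the false-positive codes.

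Other genes fell by less. Csf1, the growth factor of microglia and macrophages, was lower in 8 of 8 sections by share (-0.67 ± 0.11; limma, adjusted p = 0.00059), though its receptor Csf1r (0.07 ± 0.09) and the microglial gene Tmem119 (-0.03 ± 0.12) did not pass. Cd274, which encodes PD-L1, was lower in 8 of 8 sections (-0.66 ± 0.09). So was Batf3, a factor of cross-presenting dendritic cells (-1.05 ± 0.16). Among genes of reactive macrophages, Spp1 gave -1.95 ± 0.28, Gpnmb -1.44 ± 0.27 and Msr1 -1.37 ± 0.38, all past the threshold; Gpnmb and Msr1 were lower in 7 of 8 sections, and Msr1 did not hold under all 3 scalings. The picture was not uniform among macrophage genes. Arg1 gave -0.03 ± 0.20, Cd14 -0.05 ± 0.16 and Mrc1 -0.42 ± 0.20, none past the threshold. Cd68 and Adgre1, genes of the rule, have no test and are not counted here.

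The counts by list are read against the 4.65% of all genes that were higher and the 23.3% that were lower. With so few genes a list, nothing particular to a list is read from them. Of 4 T cell genes tested 1 rose (Icos) and 0 fell, with a median of -0.04 against -0.18 over all genes. Of 9 NK and cytotoxic genes 0 passed (median -0.05). Of 9 dendritic cell genes 2 fell and 0 rose (median -0.20), namely Flt3 and Batf3. Of 7 exhaustion and checkpoint genes 2 fell, Tox and Cd274 (median -0.23). Of 9 interleukins, interferons and TNF 3 fell (median -0.44), and of 5 macrophage and monocyte genes 2 fell (median -0.79).

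The levels also varied with Cd4 within the quiet bins, but not in 1 direction throughout. In bins with 0 to 9 Cd4, which make up 5258 of the 6948 comparison bins, Cd47 stood at 83.2 ± 18.3 molecules per bin and Dnmt3a at 26.9 ± 4.76, above their levels at 10 to 19 Cd4, and Scarb1 at 11.4 ± 1.71. From bins with 10 to 19 Cd4 molecules to bins with 80 or more, Cd47 went from 63.4 ± 8.16 to 185 ± 14.9 molecules per bin (SD, n = 8), Dnmt3a from 24.7 ± 5.85 to 68.1 ± 8.01 and Scarb1 from 12.7 ± 2.78 to 33.8 ± 4.41. Over the same range S1pr1 went from 21.4 ± 3.48 to 28.6 ± 6.06, and Csf1 from 17.4 ± 5.23 down to 9.20 ± 2.94. By share S1pr1 went the other way, from 37070 ± 10474 to 31548 ± 5753 molecules per 1000000. Sirpa and Crbn had their low point at 10 to 19 Cd4 as well. Sirpa stood at 155 ± 33.4 molecules per bin with 0 to 9 Cd4, 88.2 ± 20.4 with 10 to 19 and 185 ± 35.7 with 80 or more, and Crbn at 27.997 ± 4.40, 16.3 ± 3.39 and 40.3 ± 2.69. By share Sirpa stood at 237793 ± 52083, 146870 ± 22141 and 204988 ± 38485 molecules per 1000000 in the same strata. Its mean share was thus highest with 0 to 9 Cd4. Above 10 Cd4, Sirpa climbed with Cd4 by both measures, while the pooled comparison bins are mostly those with under 10. Il12a behaved otherwise: it stood at 1.81 ± 0.864 in bins with 0 to 9 Cd4, at 0.219 ± 0.175 with 10 to 19 and at 0.0674 ± 0.0412 with 80 or more, so most of its fall came below 10 Cd4. These values are a description, since Cd4 counts define the strata. Just outside and just inside the limit, bins with 35 to 39 Cd4 (265 bins) and with 40 to 44 (251 bins) held 97.0 ± 8.39 and 100.3 ± 7.67 Cd47, and 18.89 ± 3.65 and 18.96 ± 1.92 Scarb1.

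**Figure D3:**
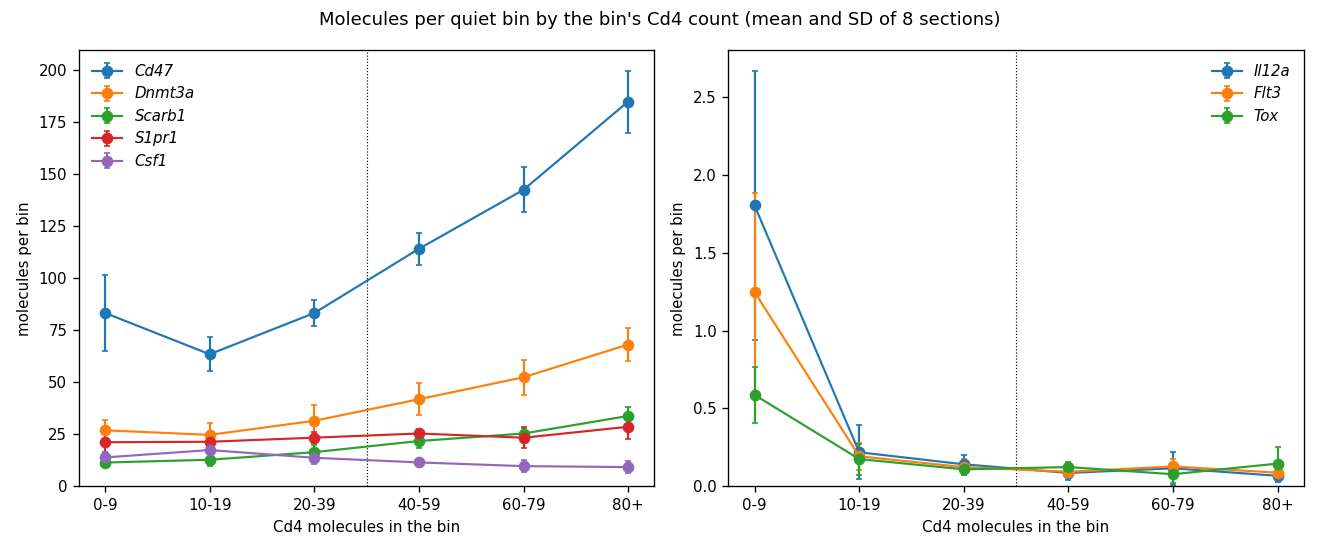
Molecules per quiet bin (mean and SD of 8 sections) by the number of Cd4 molecules in the bin, with the limit of 40 as a dotted line; both vertical axes start at 0. Cd47, Dnmt3a and Scarb1 climb from 10 to 19 Cd4 upward, while Il12a, Flt3 and Tox drop between the first and second strata and stay low.

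The comparison was repeated with the quiet bins that held 40 or more Sirpa but under 40 Cd4. Against these 5711 of the 6948 other quiet bins, 22 of 84 genes (26.2%) differed by limma, 5 higher (5.95%) and 17 lower (20.2%). Scarb1, Dnmt3a, Cd47 and Icos were again among the higher genes. Both comparisons share the Cd4-rich bins and most of the comparison bins, so their likeness was largely fixed by that.

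Comparison bins that lay inside the Cd4-rich territory, among Cd4-rich neighbours, gave a different picture for several genes. These were quiet bins with under 40 Cd4 and at least 5 Cd4-rich bins among their 8 neighbours, a choice made after the maps had been seen. In the 7 sections with 20 or more such bins, 29 of 75 genes (38.7%) differed by limma, 7 higher (9.33%) and 22 lower (29.3%). Dnmt3a (0.50 ± 0.06), Cd47 (0.44 ± 0.04), Scarb1 (0.38 ± 0.05) and Icos (0.99 ± 0.18) were higher here as well. Crbn (0.39 ± 0.06), Sirpa (0.36 ± 0.04) and Dnmt1, the maintenance DNA methyltransferase (0.28 ± 0.06), were also higher. Against all other quiet bins Dnmt1 had been lower by share (-0.29 ± 0.07; limma, adjusted p = 0.0053), a call that did not hold under all 3 scalings. These 7 genes were higher under all 3 scalings. Of the lower genes, Ly6a gave -0.90 ± 0.10, Csf1 -0.77 ± 0.10, Tmem119 -0.66 ± 0.09, Csf1r -0.64 ± 0.06 and S1pr1 -0.58 ± 0.06; with molecules per bin 18 genes were higher and 0 lower, so these falls are falls in share. The median over all genes was -0.07 by share, 0.57 per bin and 0.20 with median-of-ratios.

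Molecules were then compared at a scale below a bin. Within 50 pixels of a Cd4 molecule, against 200 to 300 pixels away inside Cd4-rich bins, 57 of 81 genes (70.4%) had a different share by limma, 11 higher (13.6%) and 46 lower (56.8%), with a median over all genes of -0.56. The largest log2 ratios of shares were those of Ifna2, an interferon gene (0.67 ± 0.10), and Icos (0.51 ± 0.09). Ifna2 was scarce, at 0.042 to 0.13 molecules per Cd4-rich bin. Among more abundant genes, Dnmt3a gave 0.41 ± 0.03, Cd47 0.35 ± 0.03, Scarb1 0.31 ± 0.03, Crbn 0.26 ± 0.03 and Sirpa 0.26 ± 0.03. Each of these was higher in 8 of 8 sections. All 7 genes that were higher inside the territory were also higher near Cd4, and all 22 lower genes were also lower. Both contrasts use the Cd4-rich bins and share scaling, so their likeness was fixed in part by that. Flt3, scarce in these bins, gave the lowest ratio (-1.78 ± 0.51). S1pr1 gave -1.34 ± 0.08, Ly6a, a stem cell antigen also found on endothelium, -1.43 ± 0.09, and Fas, a death receptor, -1.49 ± 0.10. The microglial pair Csf1r and Tmem119 gave -1.04 ± 0.07 and -1.05 ± 0.07. Each of these was lower in 8 of 8 sections. As a plain density ratio with no share scaling, 68 genes were higher near Cd4 and 0 lower, with a median of 0.95 and S1pr1 at 0.17. Only molecules inside Cd4-rich bins were counted, and the areas were not corrected for the parts outside these bins. That raises the density ratio of every gene, so its sign cannot be read. The lower shares of S1pr1, Fas and Ly6a are relative to the other genes, and whether their plain density fell near Cd4 cannot be told.

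By share, Csf1r and S1pr1 molecules gathered around their own kind more than Cd4 molecules did. Shares take out the crowding of all genes around the central molecule, so plain clumping was not compared between these genes. The log2 ratio of shares of Csf1r around its own molecules was 2.31 ± 0.384 (SD, n = 8), that of S1pr1 around its own 2.20 ± 0.221, and that of Cd4 around its own 0.391 ± 0.0822. Around Csf1r molecules the ratio was 2.69 ± 0.482 for Cd86, 2.29 ± 0.560 for Tmem119 and 2.28 ± 0.483 for Ptprc, the pan-leukocyte gene CD45, and -1.22 ± 0.104 for Cd4. Around S1pr1 it was 1.81 ± 0.133 for Fas, 1.27 ± 0.220 for Csf1 and -1.14 ± 0.134 for Cd4. The negative values for Cd4 are relative to the other genes, and plain density ratios around Csf1r and S1pr1 are not given. Cd4 around Cd47, Dnmt3a, Scarb1 and Sirpa molecules gave 0.207 ± 0.0852, 0.208 ± 0.0978, 0.167 ± 0.0592 and 0.151 ± 0.0738. No cell borders were used, and the shares of neighbouring molecules do not assign a transcript to a cell.

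**Figure D4:**
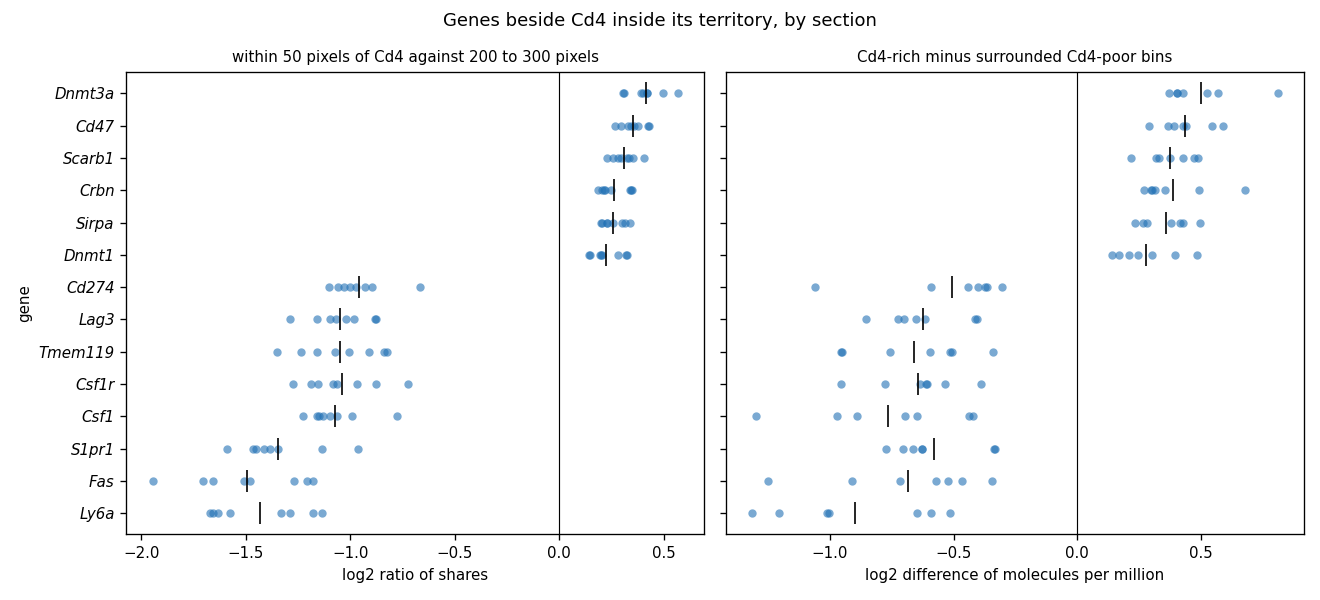
Left, log2 ratio of a gene's share within 50 pixels of Cd4 to its share at 200 to 300 pixels, 8 sections; right, log2 difference between Cd4-rich bins and Cd4-poor bins surrounded by them, 7 sections. Points are sections and ticks their means; Dnmt3a, Cd47, Scarb1, Crbn, Sirpa and Dnmt1 lie above 0 and the other 8 genes below 0 in every section of both panels.

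The design asks what each agent did. The share of quiet bins that were Cd4-rich did not differ beyond the spread between sections. It was 30.4% and 7.92% with PBS, 44.6% and 13.1% with anti-PD1, 12.98% and 21.2% in the CpG-STAT3ASO sections, and 21.0% and 34.5% under the combination. Sections with CpG-STAT3ASO averaged 22.4% ± 8.92 (SD, n = 4) and those without 24.0% ± 16.8, a difference of -1.58 percentage points (exact two-sided permutation test, p = 0.886). Sections with anti-PD1 averaged 28.3% ± 14 and those without 18.1% ± 9.86, a difference of 10.2 points (exact permutation test, p = 0.286). The limits of the rule removed more Cd4-rich tissue with CpG-STAT3ASO: of tissue bins with 40 or more Cd4, 57.9% to 73.8% were quiet with it and 87.1% to 96.9% without it. The part of bins left out in the shares was not tested. In these sections, fewer cells of a type and less RNA per cell cannot be told apart.

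Within Cd4-rich bins, 5 genes were higher with CpG-STAT3ASO, namely Gzma, Gzmb, Cd8a, Ccl5 and Nkg7. Of 81 genes tested 5 (6.17%) rose by limma and 0 fell, with a median over all genes of 0.24, against 0.08 with median-of-ratios. Gzma, a granule protease of killer cells, stood at 51.5 and 47.1 molecules per 1000000 with PBS and 49.9 and 19.8 with anti-PD1, against 486 and 377 under CpG-STAT3ASO and 227 and 186 under the combination (2.88 ± 0.49; limma, adjusted p = 0.0020). The 4 sections with the agent all lay above the 4 without it. Lack of overlap was a condition of the rule that named Gzma, Gzmb and Cd8a, so it adds no support. Its share over all 81 genes is not given. Gzmb, the related protease granzyme B, stood at 60.9 and 31.4, 47.3 and 29.8, 379 and 175, and 174 and 200 in the same order, again without overlap (2.41 ± 0.52; limma, adjusted p = 0.0055). Cd8a stood at 590 and 534, 268 and 139, 1128 and 768, and 1008 and 1372 (1.67 ± 0.40; limma, adjusted p = 0.011), without overlap.

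Ccl5, a T cell chemokine, stood at 735 and 6253 with PBS, 376 and 337 with anti-PD1, 10499 and 7597 under CpG-STAT3ASO, and 6195 and 3710 under the combination (2.90 ± 0.55; limma, adjusted p = 0.0031). PBS replicate 2 lay inside the range of the sections with the agent. Nkg7, a granule protein of killer cells, overlapped likewise, with 550 in PBS replicate 2 against 538 to 818 with the agent (2.66 ± 0.54; limma, adjusted p = 0.0045). Of 7 NK and cytotoxic genes tested 3 rose (median 1.27 against 0.24 over all genes), and Prf1 (0.79 ± 0.48), Klrd1 (1.27 ± 0.54) and Klrc1 (0.85 ± 0.54) did not pass. Of 4 T cell genes 1 rose, Cd8a (median 1.39), with Cd3d at 1.86 ± 0.89 (limma, adjusted p = 0.26) and Icos at 0.27 ± 0.41. These are small counts: Gzma numbered 2 to 19 molecules per section without the agent and 43 to 82 with it. The call of all but Gzma was lost without combination replicate 2, and 11 genes were called without PBS replicate 2. With median-of-ratios 1 gene was called (Gzma), and with molecules per bin 2 (Gzma and Gzmb).

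The same contrast in the other quiet bins gave 2.76 for Ccl5, 1.32 for Cd8a, 1.17 for Gzma, 0.99 for Nkg7 and 0.19 for Gzmb. None of these passed, and the difference between both kinds of bin did not pass either. For the change of the Cd4 contrast with CpG-STAT3ASO 0 of 86 genes were called by limma, with 8 at an unadjusted p under 0.05; Gzmb gave 2.21 ± 0.61 (adjusted p = 0.39) and Gzma 1.71 ± 0.60 (adjusted p = 0.39). Scarb1 (0.20 ± 0.13), Dnmt3a (0.02 ± 0.14) and Cd47 (0.06 ± 0.14) had adjusted p of 0.76 or more. Within Cd4-rich bins Stat3, the antisense target, gave 0.04 ± 0.28 and Tlr9, the receptor for CpG DNA, 0.60 ± 0.42, neither past the threshold.

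**Figure D5:**
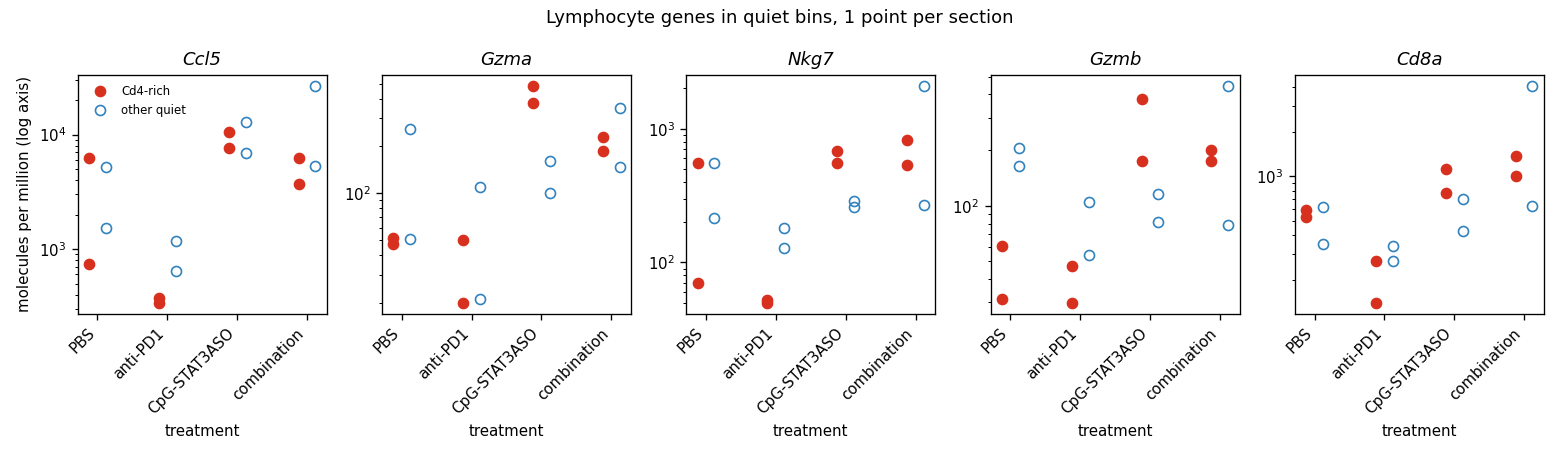
Molecules per 1000000 (log axis) of 5 genes in Cd4-rich bins (filled) and other quiet bins (open), 1 point per section and 2 sections per treatment. In Cd4-rich bins Gzma, Gzmb and Cd8a are higher in all 4 sections with CpG-STAT3ASO than in the 4 without; Ccl5 and Nkg7 overlap through PBS replicate 2.

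For anti-PD1 0 of 81 genes were called by limma within Cd4-rich bins, with 5 at an unadjusted p under 0.05. Without PBS replicate 1, 5 genes were called, and without CpG-STAT3ASO replicate 1, 1. For the interaction of the agents 0 were called, with 2 at an unadjusted p under 0.05, and 3 without PBS replicate 1.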

How the data were processed

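The deposited files list, per section, each decoded molecule with its x, y and z position and its gene, which is the authors' other unit here: per the file contents they are positions, not counts. The sources used here do not give how spots were decoded; the submitters' processing notes name Seurat 4.2.0 with no role. Members and gene lists were chosen with earlier results of these data known. Molecules of the 28 false-positive codes were dropped, and the rest were summed in bins of 360 pixels. Sums per section and kind of bin were scaled to molecules per 1000000 of the 93 genes outside the rule, log2 transformed with a pseudocount of 1, kept at a mean of 10 or more molecules and fitted with limma 3.58.1 in R 4.3.3 (lmFit, eBayes with trend; two-sided, Benjamini-Hochberg over all genes tested, threshold 0.05), with the section as block for contrasts within sections. Shares and distances used exact permutation tests (scipy 1.17.1). Fold changes are on the log2(value + 1) scale and understate low genes. The zero limit for Tox covers counting error only, while ± values are SEs from limma or SDs between sections.

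Named genes were, per contrast, up to 12 each way past the threshold, of 1 sign in every section or without overlap between arms, and above the false-positive level on at least 1 side, plus a set list. Other genes printed, such as Icos, Msr1, Ccl5 and Nkg7, fell outside that rule in their contrast and were named after their values were seen. Some genes that the rule names are not reported here.

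The fits were tested on simulated data (20 runs). With the 10 most abundant genes unchanged, the paired fit recovered 78.0%, 96.7% and 100.0% of 2-fold, 4-fold and 8-fold changes but made 6.1 false calls a run. Shares sum to a fixed total, so a change of one gene moves the shares of the others. A second simulation, set up after that result, kept the 30 most abundant genes unchanged and gave 68.1%, 95.8% and 98.3% with 0.5 false calls. The share scaling itself was not altered, so calls that hold under 1 scaling alone are open to this shift. The treatment fit recovered 15.3%, 67.0% and 93.6% in the first simulation with 0.65 false calls. In the second it recovered 10.6%, 59.5% and 86.8% with 0.4 false calls.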

Additional observations from a re-analysis of the deposited data

Results flagged for a closer look

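Of 62 sets of section values examined, 3 held a section far from the others, which is about what chance gives at 1 in 20 sets. The log2 difference of Fabp5 between Cd4-rich and other quiet bins was -0.42 in PBS replicate 2, apart from the other 7 sections. Gzma in Cd4-rich bins was 19.8 molecules per 1000000 in anti-PD1 replicate 2, apart from the other 3 sections without CpG-STAT3ASO, and rested on 2 molecules. Gzmb in Cd4-rich bins was 379 molecules per 1000000 in CpG-STAT3ASO replicate 1, apart from the other 3 sections with the agent.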

How the results depend on the processing

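The comparison inside the territory, the contrast away from proliferating bins and the treatment contrast in other quiet bins were chosen after seeing the data. For genes going with Cd4, 24 calls became 41 with 180-pixel bins, 38 with 80 or more Cd4 and 9 at least 5 bins from proliferating bins (3 sections), and 23 to 24 without any 1 section. Inside the territory 29 calls became 18 with molecules per bin. For CpG-STAT3ASO 5 calls became 2 with molecules per bin, 1 with median-of-ratios and 3 with a filter of 50, and 1 to 11 without any 1 section; anti-PD1 gave 0 to 5 and the interaction 0 to 3. The share of Cd4-rich bins with CpG-STAT3ASO turned to 1.06 points with 80 or more Cd4, and ran from -6.94 to 5.28 without any 1 section. The distance to dense bins turned to 1.03 bins at a limit of 200, and ran from -0.93 to 0.52. The cause of these shifts was not tested.

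Some genes that were not called, and Sirpa, changed sign in the contrast with other quiet bins. With molecules per bin Sirpa gave 0.057, Cd3d 0.18, Cd8a 0.23, Tmem119 0.21, Stat3 0.20, Tlr9 0.15 and Pdcd1 0.0086. With median-of-ratios Cd3d gave 0.094, Cd8a 0.15, Tmem119 0.13, Stat3 0.12 and Tlr9 0.067. Cd3d gave 0.037 with a pseudocount of 10 and 0.089 with voom, where S1pr1 gave -0.000177. With 180-pixel bins S1pr1 gave -0.34, Cd3d 0.72, Cd8a 0.024, Lag3 -0.24, Fabp5 -0.00436, Csf1r -0.30 and Pdcd1 0.10. With 720-pixel bins Cd8a gave 0.20, Crbn -0.046, Tmem119 0.17, Stat3 0.029 and Tlr9 0.042. With the shifted grid S1pr1 gave -0.00481, Cd3d 0.53 and Cd8a 0.018. With 20 or more Cd4, Cd3d gave 0.60, Cd8a 0.11, Crbn -0.12, Tmem119 0.19, Ptprc 0.059, Stat3 0.12, Tlr9 0.15, Pdcd1 0.021 and Cd74 0.19. With 80 or more Cd4, S1pr1 gave -0.11, Foxp3 -0.19, Lag3 -0.28 and Csf1r -0.22. With 100 or more molecules per bin Cd8a gave 0.0091. With matched comparison bins S1pr1 gave -0.026 and Foxp3 -0.094. Away from proliferating bins S1pr1 gave -0.071, Cd8a 0.37, Lag3 -0.33 and Csf1r -0.028. In sections without CpG-STAT3ASO S1pr1 gave -0.0402, Lag3 -0.14, Fabp5 -0.015 and Csf1r -0.053, and in those with it Cd3d gave 0.27, Cd8a 0.16, Tmem119 0.13, Stat3 0.094 and Pdcd1 0.046. Without any 1 section S1pr1 ran from -0.031 to 0.037, Cd3d from -0.23 to 0.21, Cd8a from -0.14 to 0.21, Fabp5 from -0.00075 to 0.092, Tmem119 from -0.088 to 0.057, Stat3 from -0.087 to 0.014 and Tlr9 from -0.20 to 0.0075.

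As a density ratio near Cd4, Fas gave 0.019, Ly6a 0.079, Spp1 0.10, Nos2 0.16, S1pr1 0.17, Tox 0.28, Mrc1 0.41, Tgfb1 0.42, Csf1 0.44 and Tmem119 0.46. This ratio was not corrected for area outside the Cd4-rich bins, which raises it for every gene, so these signs cannot be read. Inside the territory, per bin, Havcr2 gave 0.0013, Lag3 0.017, Dnmt3b 0.029, S1pr1 0.0602 and Ptprc 0.084.

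Replicate numbers are not stated to pair sections, and same-numbered sections' deviations correlated at -0.22 to 0.12. With the replicate block the calls were 5 for CpG-STAT3ASO and 0 for anti-PD1, for the interaction and for the change of the Cd4 contrast; the share tests gave exact permutation p = 0.889 and 0.333. Few molecules of scarce genes, and 2 sections a treatment, limit the precision.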
